A study of Homo sapiens with 12 samples.

Results

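The 32 genes described here encode enzymes of cholesterol synthesis, the regulators of the transcription factor SREBP2, and proteins that move, store or sense sterols. They were taken by gene symbol from a fixed list. No measured value decided membership, but the list was chosen with earlier results of these data known. All 32 were found among the 45478 genes of the count table. mRNA sequencing compared 2 human clear cell renal cell carcinoma lines, 786-O and A498, with 1 derivative of each that had been selected for resistance to the tyrosine kinase inhibitor sunitinib. The derivatives, named here as in the labels by the word resistant, had been grown in rising sunitinib until they reached confluence at 4 µM and 2 µM, respectively, over 4 months or more than 20 passages. Where 786-O or A498 stands alone it means the parental line. Each of the 4 groups held 3 libraries, and all 12 carry the treatment label none. The library names also hold the letters veh, which the labels do not explain. Whether sunitinib was present at harvest is thus not given in the sources used here. Each resistant line is a single selected culture, and nothing in the labels says that replicate libraries came from separate cultures, so p-values measure only the spread between these libraries, which may be technical.

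Cholesterol is built from acetyl-CoA through the mevalonate pathway, which makes isoprenoids, then through squalene and lanosterol, and finally by a series of reductions, demethylations and isomerizations in the endoplasmic reticulum. SREBP2, encoded by SREBF2, is held in that membrane by SCAP and the INSIG proteins when sterols are plentiful, and is released, cleaved and sent to the nucleus when they fall, where it activates most genes of the pathway. Oxysterols and some intermediates of the pathway activate the liver X receptors, which promote sterol export, and clear cell renal carcinoma is known for cells filled with stored lipid and sterol esters.

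The libraries held 40845091 to 47972092 counts in 786-O, 42643735 to 46888482 in resistant 786-O, 21686648 to 34951585 in A498 and 20042519 to 25831163 in resistant A498. Levels are given as CPM, that is, counts divided by the TMM-scaled library total and set to a common scale, as the mean ± SD of 3 libraries or as the 3 libraries' values in the order of their replicate numbers. The libraries labelled resistant A498 went against that label. Of 62 genes with at least 10 CPM in A498 and at most 3 counts in each 786-O library, the median level in resistant A498 was 0.362% of that in A498, and 33 genes with the opposite pattern stood at 94.6% of their 786-O level. Across all genes tested, the median correlation of these libraries was 0.989 with those of resistant 786-O, 0.967 with those of 786-O and 0.918 with those of A498. Differences of these libraries from A498 cannot be told apart from differences between the parental lines, so calls and values against 786-O are given beside them. In resistant 786-O, replicate 2 correlated least with the other libraries of its group, and the members' median coefficient of variation was 7.86% there against 2.22% to 3.10% in the other groups. Of 8 listed markers of kidney tubule and clear cell carcinoma, PAX8, EPAS1, VIM, KRT8 and KRT18 were present in every group. NDUFA4L2 had means of only 0.474 to 0.573 CPM. EPCAM was at 5.43 CPM in 786-O and at 0.363 to 0.659 CPM in the other groups. CA9, a marker of clear cell carcinoma, was at a mean of 1.29 CPM in A498. It was at most 0.0175 CPM in 786-O and resistant A498, and 0 in resistant 786-O. Markers of T cells, endothelium and hepatocytes summed to at most 0.590, 0.813 and 1.26 CPM in any library, and CD2 was at 0 throughout. Myeloid markers summed to at most 3.72 CPM. Fibroblast markers summed to 50.4 to 61.9 CPM in A498, nearly all of it COL1A1, and to 6.47 to 21.5 CPM elsewhere, and their part in the results was not tested.

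In resistant 786-O, 24 of the 32 genes passed the threshold, an adjusted p under 0.05 in the quasi-likelihood test of edgeR, Benjamini-Hochberg adjusted over all 19929 genes tested, against 68.5% of all genes. Of these, 17 were higher and 7 lower, where 35.0% and 33.5% of all genes were called in each direction. The members' median log2 fold change was 0.32, and that of all genes tested was 0.033. The libraries labelled resistant A498 differed from A498 in 30 members, 25 higher and 5 lower, against 72.7% of all genes, 36.3% higher and 36.4% lower. The members' median was 0.61 there and that of all genes -0.0041. Against 786-O, the same libraries differed in 27 members, 22 higher and 5 lower, with 63.6% of all genes called, 31.6% higher and 32.1% lower. The median was 0.58 for members and 0.0029 for all genes. Scaling by library size alone moved the median of all genes by 0.14 in resistant 786-O and gave 21 members higher and 4 lower. Taking out the trend with GC content and length of genes moved that median by -0.15 and gave 17 and 10. Measured from the median of all genes, the members' median in resistant 786-O was 0.28 with TMM and with library size alone. These 2 scalings shift all genes by about the same amount, so this agreement was fixed in advance. With the GC and length trend taken out it was 0.32. Against 786-O, the libraries labelled resistant A498 had 24 members higher and 2 lower with library size alone, which moved the median of all genes by 0.15. The shares of all genes called under library size alone or with the trend taken out are not given here. The shares above therefore do not serve as a background for these counts.

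The comparisons of resistant 786-O with 786-O and of resistant A498 with A498 share no library, though the libraries labelled resistant A498 correlated best with resistant 786-O, and 16 members were called higher in both, where 15.2% of all genes were. These were HMGCS1, MVK, MVD, IDI1 and FDPS of the mevalonate pathway, FDFT1, SQLE and LSS of the steps to lanosterol, CYP51A1, TM7SF2, NSDHL, HSD17B7, EBP, SC5D and DHCR7 of the steps from lanosterol, and SREBF2. PMVK and INSIG2 were called lower in both, as were 14.3% of all genes. LBR, INSIG1, SCAP and SOAT1 were called lower in resistant 786-O and higher in resistant A498, as were 11.1% of all genes. The higher call of SOAT1 was lost once the GC and length trend was taken out, at 0.059. No member was called higher in resistant 786-O and lower in resistant A498, a pattern of 10.6% of all genes. Past a log2 fold change of 1 in size, 5 members were higher and 1 lower in resistant 786-O, with 16.2% and 5.76% of all genes so called. In resistant A498 against A498 these were 8 and 2, with 14.3% and 16.5% of all genes, and against 786-O 9 and 1, with 13.7% and 6.3%. CYP27A1, among the 5 in resistant 786-O, and CH25H, among the 8, rest on a few reads. Between the groups, the libraries did not overlap for 26 members in resistant 786-O against 786-O, for 30 in resistant A498 against A498 and for 29 in resistant A498 against 786-O, where 68.9%, 78.5% and 73.4% of all genes had no overlap.

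**Figure D1:**
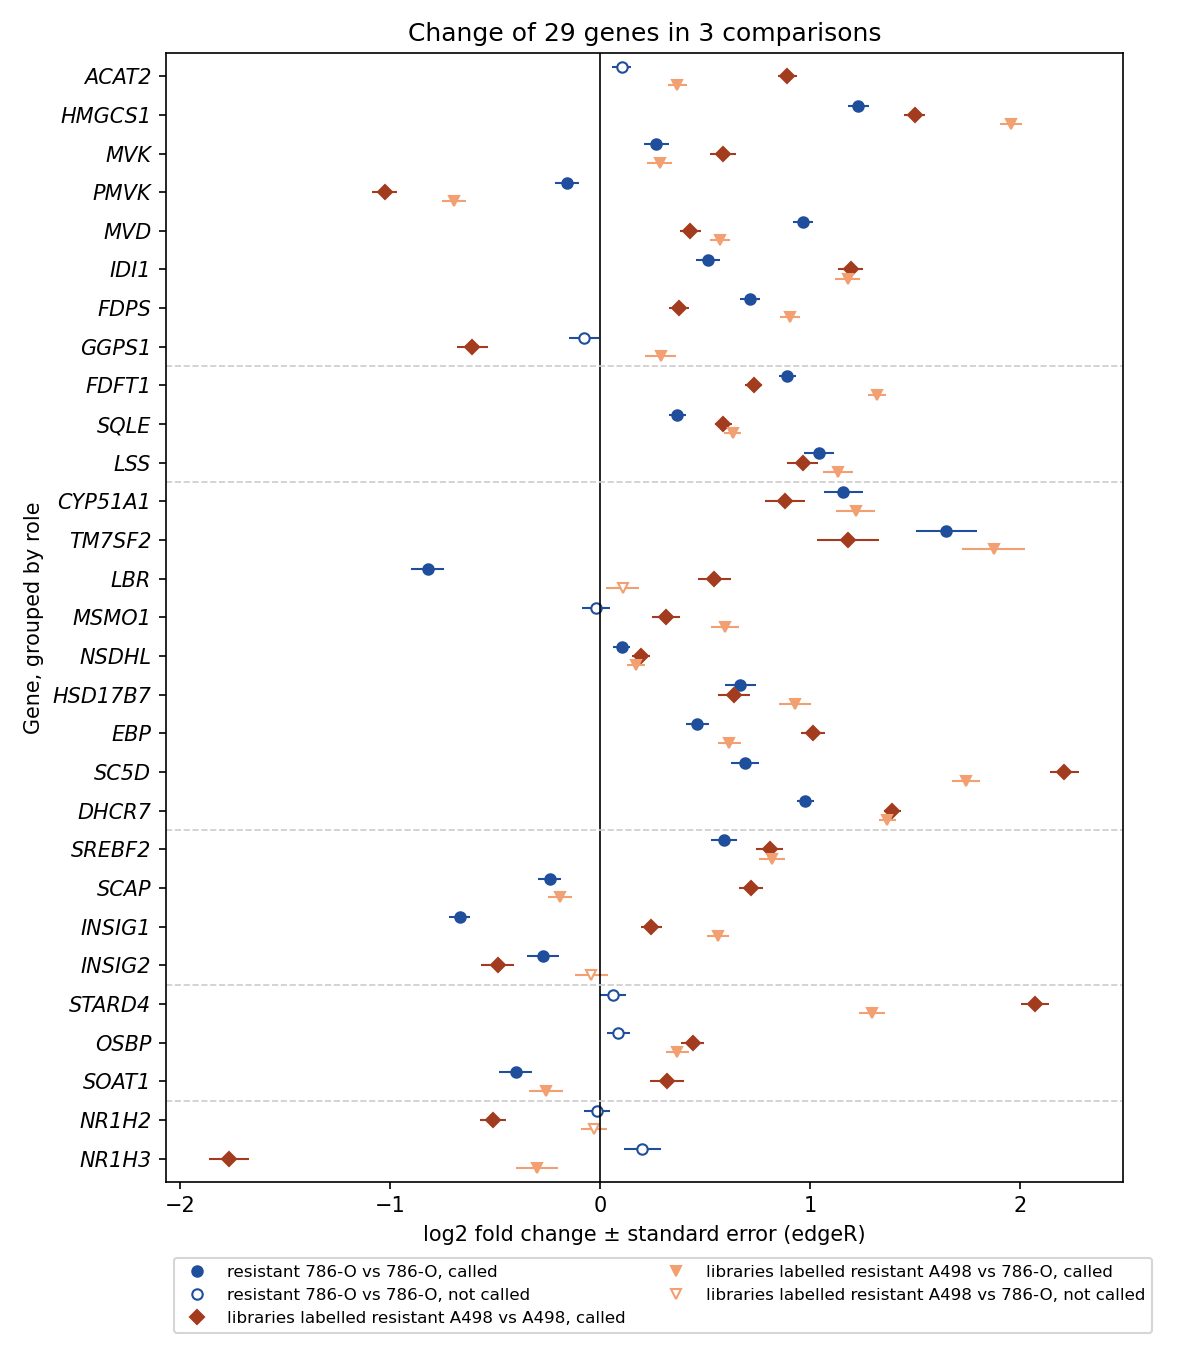
Log2 fold change ± standard error (x axis) of 29 of the 32 genes (y axis), grouped by role with dashed lines between roles, in 3 comparisons; filled symbols passed the threshold and open ones did not. Most enzymes down to DHCR7 lie to the right of 0 in all 3 comparisons, PMVK lies to the left in all 3, and LBR and INSIG1 lie to the left only in resistant 786-O; the 3 oxysterol enzymes with few counts are left out.

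The promoters of members that moved together are shown to set the letters known for sterol-regulated genes beside the measured changes. RefSeq promoters of GRCh38.p14 were matched for 28 members, and the 250 bases before each start site were searched on both strands and set against the same window of 27305 promoters. The CCAAT box, which binds NF-Y, a partner of SREBP2 at many of its targets, was searched as CCAAT and was found in 17 of the 28 members, or 60.7%, and in 9021 of all 27305 promoters. The GC box GGGCGG, a site of Sp1, was found in 85.7% of members and 42.3% of all promoters. The E-box CACGTG was found in 10.7% and 6.49%. The sterol regulatory element was searched as TCACNCCAC and was found only in SREBF2 among the members, and in 0.875% of all promoters. The 27305 promoters were not limited to genes that passed the expression filter, which all members did. The shares of members and of all promoters are therefore not like for like. Matches of different motifs can overlap at their ends. Capitals mark the sterol regulatory element and the CCAAT box, which reads ATTGG on the other strand, and each stretch ends before the first annotated exon of its gene. SREBF2 (chr22:41832855-41833104, plus strand) is shown for holding both, HMGCS1 (chr5:43313513-43313662, minus strand), HSD17B7 (chr1:162790452-162790701, plus strand) and EBP (chrX:48521558-48521798, plus strand) as genes called higher in all 3 comparisons, and PMVK (chr1:154936720-154936969, minus strand) as the enzyme called lower in all 3.
SREBF2: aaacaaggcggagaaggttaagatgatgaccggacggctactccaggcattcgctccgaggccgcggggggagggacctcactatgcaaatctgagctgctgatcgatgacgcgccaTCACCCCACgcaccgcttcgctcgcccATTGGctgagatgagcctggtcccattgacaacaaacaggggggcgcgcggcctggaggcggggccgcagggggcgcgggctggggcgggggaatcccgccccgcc
HMGCS1: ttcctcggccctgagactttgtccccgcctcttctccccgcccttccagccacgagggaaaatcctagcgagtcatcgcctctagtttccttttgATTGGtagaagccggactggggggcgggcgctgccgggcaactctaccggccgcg
HSD17B7: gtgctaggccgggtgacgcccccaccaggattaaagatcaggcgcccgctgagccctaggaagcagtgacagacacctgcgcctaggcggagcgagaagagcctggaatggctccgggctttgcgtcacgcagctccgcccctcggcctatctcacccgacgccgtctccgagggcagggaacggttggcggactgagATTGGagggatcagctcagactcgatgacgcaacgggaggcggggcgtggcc
EBP: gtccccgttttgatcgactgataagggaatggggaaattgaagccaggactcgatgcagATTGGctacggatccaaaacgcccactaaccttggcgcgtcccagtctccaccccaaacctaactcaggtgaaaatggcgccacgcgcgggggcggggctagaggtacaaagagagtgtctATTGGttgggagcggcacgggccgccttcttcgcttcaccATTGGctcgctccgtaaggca
PMVK: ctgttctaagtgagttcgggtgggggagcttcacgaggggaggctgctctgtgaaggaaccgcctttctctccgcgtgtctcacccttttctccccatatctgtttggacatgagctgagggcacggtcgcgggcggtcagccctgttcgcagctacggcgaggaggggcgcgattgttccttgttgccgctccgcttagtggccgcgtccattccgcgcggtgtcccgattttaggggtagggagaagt

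The 17 members with a CCAAT box had a median log2 fold change of 0.59 in resistant 786-O, with 12 called higher and 2 lower. The 11 without one had a median of -0.014, with 3 higher and 4 lower, where 35.0% and 33.5% of all genes were called higher and lower. In resistant A498 against A498 the medians were 0.64 and -0.48, with 17 higher and 0 lower among those with the box, and 5 higher and 5 lower among those without, where 36.3% and 36.4% of all genes were called higher and lower. Against 786-O the medians were 0.82 and -0.0060. The medians of -0.48 and -0.0060 are the values of CYP27A1 and CH25H, which had few counts. CYP27A1 is also among the 3 without the box called higher in resistant 786-O, and CH25H among the 5 in resistant A498 against A498. The members without the box were PMVK, IDI1, GGPS1, CYP51A1, LBR, INSIG2, SCAP, NR1H2, NR1H3, CYP27A1 and CH25H, of which IDI1 and CYP51A1 were called higher in all 3 comparisons. These counts are a description without a test.

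HMGCS1, which condenses acetyl-CoA and acetoacetyl-CoA to HMG-CoA (chr5:43287470-43313512, minus strand), had the largest fold change of the mevalonate pathway in all 3 comparisons. Its libraries read 126, 129 and 130.2 CPM in 786-O, with 317, 283 and 304 CPM in resistant 786-O. They read 186, 176 and 168 CPM in A498, with 493, 512 and 491 CPM in resistant A498. All resistant libraries thus lay above all parental ones, and those labelled resistant A498 highest. The log2 fold change ± standard error was 1.23 ± 0.051 in resistant 786-O (adjusted p = 3.1e-11), 1.50 ± 0.051 in resistant A498 against A498 (adjusted p = 1.2e-12) and 1.95 ± 0.052 against 786-O (adjusted p = 2.7e-13). An antisense locus that overlaps its exons, ENSG00000261604, held 14.2% to 19.0% as many counts and changed by 0.81 in resistant 786-O and 1.37 in resistant A498 against A498.

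ACAT2, the cytosolic thiolase that supplies acetoacetyl-CoA, was not called in resistant 786-O, at 153 ± 2.12 CPM in 786-O against 165 ± 5.74 CPM in resistant 786-O. Its adjusted p there was 0.054, and it was called with DESeq2, with library size alone, and without resistant 786-O replicate 2 (log2 fold change 0.12), resistant 786-O replicate 3 (0.13), or resistant A498 replicate 1, 2 or 3 (0.12 in each case). In resistant A498 it stood at 198 ± 8.05 CPM against 107 ± 3.05 CPM in A498, a 1.85-fold ratio (adjusted p = 1.4e-10), and 1.29-fold the level in 786-O (adjusted p = 4.4e-06). TCP1 overlaps 20.9% of its exon length on the opposite strand together with SOD2-OT1, and held 152.8% to 321.3% as many counts.

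The phosphorylation steps of mevalonate did not move together. MVK, the first kinase, rose 1.20-fold in resistant 786-O from 39.9 ± 0.887 CPM and stood at 32.4 ± 1.67 CPM in A498, with 48.5 ± 1.20 CPM in resistant A498, 1.22-fold the level in 786-O, a log2 fold change of 0.28 that became -0.033 once the GC and length trend was taken out. Its log2 fold change of 0.27 in resistant 786-O became -0.25 when the trend was taken out. PMVK, the next kinase (chr1:154924740-154936719, minus strand), fell. Its libraries read 39.1, 38.3 and 41.4 CPM in 786-O, with 33.6, 37.9 and 35.2 CPM in resistant 786-O, and 50.9, 48.5 and 50.0 CPM in A498, with 23.7, 24.5 and 25.3 CPM in resistant A498. The groups did not overlap in either line, and the resistant A498 libraries were the lowest of all 12. PMVK fell by 1.03 on the log2 scale in resistant A498 against A498 (adjusted p = 4.9e-10) and by 0.69 against 786-O (adjusted p = 7.4e-08). The smaller fall in resistant 786-O, -0.16 ± 0.055 (adjusted p = 0.02), lost its call with DESeq2, with library size alone, without the filter, and without 786-O replicate 3 (-0.13), resistant 786-O replicate 1 (-0.093) or resistant 786-O replicate 3 (-0.13).

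MVD, which decarboxylates mevalonate diphosphate to isopentenyl diphosphate, rose more in resistant 786-O, from 84.4 ± 2.68 to 165 ± 6.41 CPM, than in resistant A498, where it stood at 125 ± 5.78 against 93.2 ± 1.94 CPM, 1.49-fold the level in 786-O. The difference between the log2 fold changes was -0.53 ± 0.068 (adjusted p = 5.4e-06), and 0.64 once the GC and length trend was taken out, so its direction depends on that step. IDI1, which isomerizes that product, went the other way. It rose 1.43-fold in resistant 786-O, from 86.4 ± 1.50 to 123 ± 10.9 CPM, and 2.29-fold in resistant A498, from 85.5 ± 3.22 to 195 ± 5.07 CPM, a difference of 0.68 ± 0.082 (adjusted p = 3.1e-06). Against 786-O it was 2.26-fold in resistant A498. IDI2-AS1, which overlaps IDI1 on the opposite strand, held 10.2% to 15.5% as many counts.

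FDPS, which joins isoprene units to farnesyl diphosphate, rose from 188 ± 3.03 to 308 ± 21.0 CPM and from 271 ± 0.799 to 351 ± 4.95 CPM, the last 1.87-fold the level in 786-O. RUSC1-AS1 overlaps FDPS on the opposite strand and held 57.3% to 61.1% as many counts, with log2 fold changes of 0.66 and 0.28 beside 0.71 and 0.38 for FDPS, so reads of this pair are uncertain. GGPS1, which leads farnesyl diphosphate to geranylgeranylation and away from sterols, showed no such rise. It stood at 10.3 ± 0.609 CPM in 786-O, with 9.79 ± 0.394 CPM in resistant 786-O (adjusted p = 0.37). It was highest in A498, at 19.2 ± 1.02 CPM, and the libraries labelled resistant A498, at 12.6 ± 0.384 CPM, were lower than A498 and higher than 786-O (adjusted p = 0.0036). GGPS1 shares 37.3% of its exon length with a same-strand locus in GENCODE 44.

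**Figure D2:**
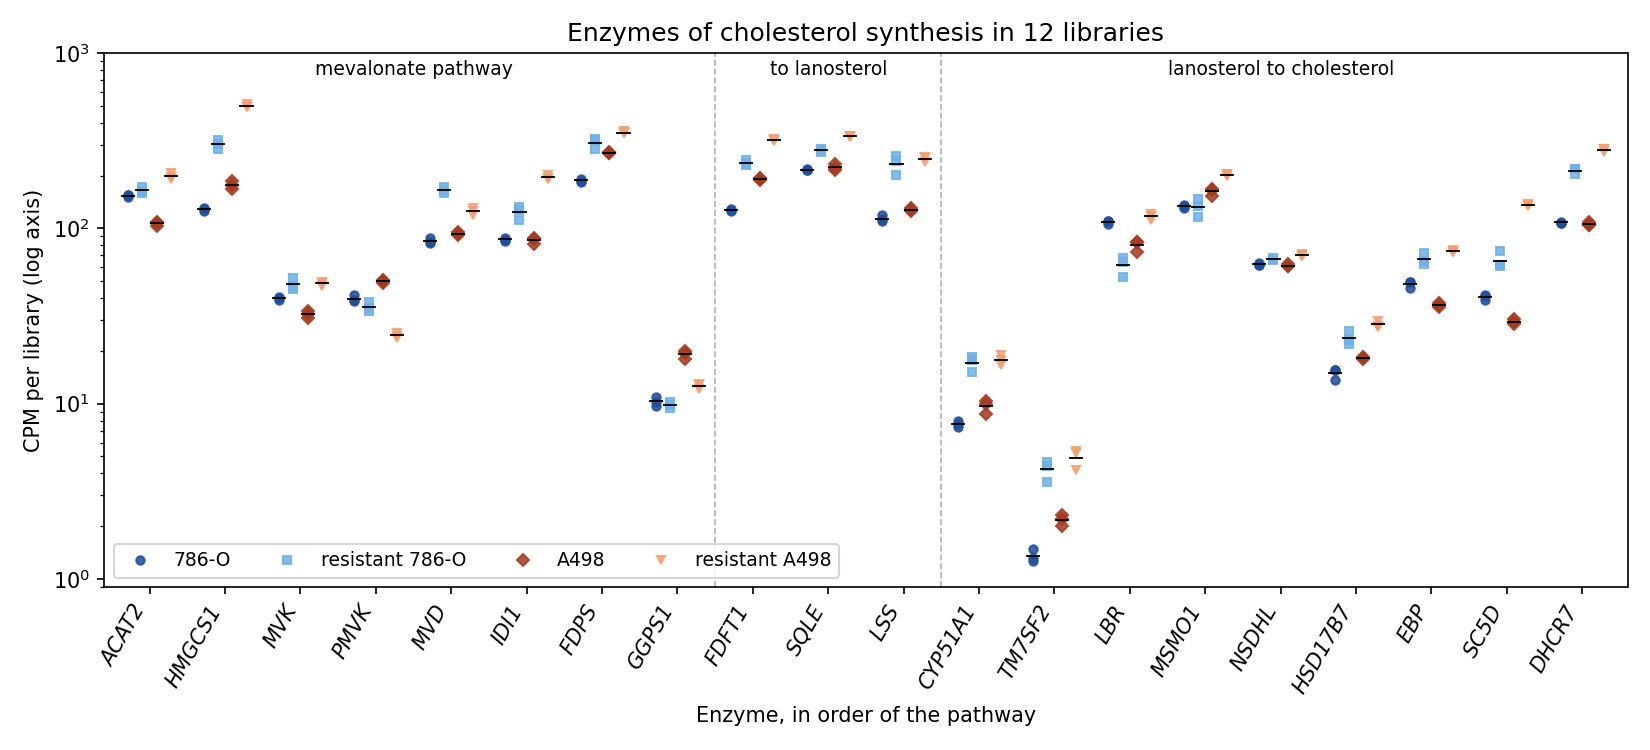
CPM of each library (y axis, log axis) for the 20 synthesis enzymes in the order of the pathway (x axis), with black lines at the group means and dashed lines between the 3 stages. HMGCS1, FDFT1, SQLE, LSS, SC5D and DHCR7 show both resistant groups above both parental ones, PMVK shows resistant A498 lowest, and LBR shows resistant 786-O lowest.

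All 3 enzymes between farnesyl diphosphate and lanosterol were called higher in each comparison. Of all genes, 35.0% were in resistant 786-O, and 36.3% and 31.6% in resistant A498 against A498 and against 786-O. FDFT1, the squalene synthase, stood at 127 ± 2.18 CPM in 786-O, 236 ± 8.86 CPM in resistant 786-O, 191 ± 1.74 CPM in A498 and 317 ± 3.80 CPM in resistant A498. Its log2 fold changes were 0.89 ± 0.041, 0.73 ± 0.041 and, against 786-O, 1.32 ± 0.041. SQLE, the squalene epoxidase and a control point of the pathway, rose least of the group, 1.29-fold in resistant 786-O and 1.50-fold in resistant A498, from 216 ± 1.74 and 222 ± 8.88 CPM, and 1.55-fold in resistant A498 against 786-O. The parental lines were not called different in SQLE. LSS, which closes the ring system to lanosterol (chr21:46188141-46228824, minus strand), read 109.9, 113 and 118 CPM in 786-O, with 243, 201 and 258 CPM in resistant 786-O. It read 131, 127 and 125 CPM in A498, with 239, 253 and 255 CPM in resistant A498. Both resistant groups lay well above both parental ones, replicate 2 of resistant 786-O being the lowest of the resistant libraries. LSS rose 2.06-fold in resistant 786-O (adjusted p = 7.4e-09) and 1.95-fold in resistant A498 (adjusted p = 1.1e-08), and the test of the difference between the lines did not pass (difference -0.079 ± 0.10, adjusted p = 0.51), though the difference was 0.76 once the GC and length trend was taken out. Against 786-O, LSS was 2.19-fold in resistant A498 (adjusted p = 3.7e-09).

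From lanosterol to cholesterol, 7 of 9 enzymes were called higher and 1 lower in resistant 786-O, where 35.0% and 33.5% of all genes were so called. All 9 were called higher in resistant A498 against A498, and 8 against 786-O, where 36.3% and 31.6% of all genes were. CYP51A1, the lanosterol demethylase, rose from 7.94, 7.35 and 7.70 CPM in the 786-O libraries to 17.7, 15.1 and 18.4 CPM in the resistant ones, and in A498 from a mean of 9.69 ± 0.838 to 17.8 ± 1.25 CPM, the last 2.32-fold the level in 786-O. The next reduction can be made by either of a pair of proteins, TM7SF2 in the endoplasmic reticulum and LBR, the lamin B receptor, in the inner nuclear membrane, and these parted in resistant 786-O. LBR (chr1:225401502-225428925, minus strand) read 106, 109 and 109.8 CPM in 786-O, with 67.4, 52.8 and 64.4 CPM in resistant 786-O, with no overlap. It read 84.0, 83.9 and 72.9 CPM in A498, with 121, 111 and 118 CPM in resistant A498. LBR fell by 0.82 on the log2 scale in resistant 786-O (adjusted p = 2.8e-07) and rose by 0.54 in resistant A498 against A498 (adjusted p = 1.8e-05), and the difference between the lines was 1.36 ± 0.11 (adjusted p = 4.2e-08). Against 786-O the libraries labelled resistant A498 were not called (log2 fold change 0.11 ± 0.078, adjusted p = 0.24), and were called without resistant 786-O replicate 2, at 0.11.

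TM7SF2 (chr11:65111845-65116384, plus strand) was low but separated in each line. It read 1.32, 1.47 and 1.26 CPM in 786-O, with 4.68, 3.60 and 4.42 CPM in resistant 786-O, a 3.14-fold rise (adjusted p = 1.1e-07). In A498 it read 2.20, 2.00 and 2.32 CPM and in resistant A498 5.37, 4.16 and 5.24 CPM, a 2.27-fold rise (adjusted p = 3.7e-06) and 3.66-fold the level in 786-O (adjusted p = 4.4e-08). Per kilobase of exon, the level of LBR was 48.1 ± 3.74 times that of TM7SF2 in 786-O and 8.69 ± 0.0797 times in resistant 786-O, and 22.2 ± 3.17 times in A498 and 14.3 ± 1.45 times in resistant A498. LBR thus remained the more abundant of the pair per length in every library.

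MSMO1, which removes methyl groups from the ring, was not called in resistant 786-O, at 134 ± 2.13 CPM in 786-O against 132 ± 15.2 CPM in resistant 786-O, whose libraries spread over 146, 134 and 116 CPM. It rose 1.24-fold in resistant A498 against A498 and 1.51-fold against 786-O. NSDHL, which acts beside it in the demethylation complex, rose by little, 1.07-fold in resistant 786-O and 1.14-fold in resistant A498, with 1.13-fold against 786-O, a call that was lost without the filter (0.16). Its call in resistant 786-O (adjusted p = 0.035) was lost without any one library of 786-O or of A498, at log2 fold changes of 0.11, 0.091 and 0.094 for 786-O and of 0.096 in each case for A498. It turned to -0.11 once the GC and length trend was taken out. HSD17B7, the ketoreductase of that complex, rose from 14.9 ± 1.08 to 23.6 ± 2.00 CPM and from 18.2 ± 0.265 to 28.3 ± 1.21 CPM, the last 1.90-fold the level in 786-O. Its pseudogene HSD17B7P2 held 130 counts in all 786-O libraries, 398 in resistant 786-O, 7 in A498 and 172 in resistant A498, up to 12.1% of the counts of HSD17B7, so reads of this pair may be split.

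EBP, which moves a double bond in the ring, rose 1.38-fold in resistant 786-O and 2.02-fold in resistant A498, or 1.53-fold against 786-O, and EBP shares 36.4% of its exon length with a same-strand locus in GENCODE 44. SC5D, the desaturase that follows (chr11:121292681-121313410, plus strand), showed the largest rise of the 20 synthesis enzymes in resistant A498 against A498. Its libraries read 29.3, 30.4 and 28.4 CPM in A498, with 136, 138 and 134 CPM in resistant A498. They read 38.9, 41.2 and 41.7 CPM in 786-O, with 73.8, 60.7 and 61.6 CPM in resistant 786-O. The 4 groups did not overlap, in the order A498, 786-O, resistant 786-O and resistant A498. SC5D rose 4.63-fold against A498 (adjusted p = 5.4e-13), 3.34-fold against 786-O (adjusted p = 1.7e-11) and 1.61-fold in resistant 786-O (adjusted p = 3.1e-07). DHCR7, a reductase of the last steps to cholesterol, read 108, 109 and 108 CPM in 786-O, with 205, 217 and 217 CPM in resistant 786-O. It read 105, 109 and 105 CPM in A498, with 273, 282 and 282 CPM in resistant A498. The parental lines overlapped and were not called different, and both resistant groups were above them, by 0.98 ± 0.041 and 1.39 ± 0.042 on the log2 scale (adjusted p = 3.7e-11 and 2.8e-13) and, for resistant A498 against 786-O, by 1.37 ± 0.041.

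SREBF2 and the genes that hold its product in the endoplasmic reticulum did not move as one group. SREBF2 itself (chr22:41833105-41907306, plus strand) read 220.5, 219.7 and 221 CPM in 786-O, with 335, 291 and 369 CPM in resistant 786-O. It read 219.8, 222 and 223 CPM in A498, with 386, 391 and 387 CPM in resistant A498. Every resistant library lay above every parental one, and the parental lines were not called different. SREBF2 rose 1.51-fold in resistant 786-O (adjusted p = 8.8e-07), 1.75-fold in resistant A498 against A498 (adjusted p = 1.9e-08) and 1.76-fold against 786-O (adjusted p = 3e-08). SREBF2-AS1, on the opposite strand, held 3.13% to 5.36% as many counts.

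INSIG1, an endoplasmic reticulum anchor of SCAP that is itself a known target of SREBP2 (chr7:155297776-155310235, plus strand), went against the enzymes in resistant 786-O. It read 297, 308 and 309.7 CPM in 786-O, with 188, 206 and 181 CPM in resistant 786-O. It read 389.8, 389.5 and 359.7 CPM in A498, with 441, 457 and 451 CPM in resistant A498. The 4 groups did not overlap, with resistant 786-O lowest and resistant A498 highest. INSIG1 fell by 0.67 on the log2 scale in resistant 786-O (adjusted p = 2.6e-08), and rose by 0.24 in resistant A498 against A498 (adjusted p = 0.00055) and by 0.56 against 786-O (adjusted p = 1.9e-07). The difference between the lines was 0.91 ± 0.073 (adjusted p = 3e-08). INSIG2, the less abundant anchor, fell in both, from 24.6 ± 1.27 to 20.4 ± 2.20 CPM and from 33.5 ± 1.26 to 23.9 ± 1.48 CPM. Its log2 fold change in resistant 786-O of -0.27 was -0.13 and no longer called with library size alone, and 0.049 once the GC and length trend was taken out. INSIG2 was not called in resistant A498 against 786-O (log2 fold change -0.043 ± 0.079, adjusted p = 0.66).

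SCAP, which escorts SREBP2 to the Golgi (chr3:47413681-47477126, minus strand), was lowest in A498. It read 47.9, 49.7 and 47.5 CPM there and 78.0, 78.8 and 81.8 CPM in resistant A498, a 1.64-fold rise (adjusted p = 2.3e-08). In 786-O it read 92.6, 90.6 and 88.9 CPM and in resistant 786-O 75.8, 71.1 and 83.5 CPM, and it was called lower there (log2 fold change -0.24 ± 0.055, adjusted p = 0.0013). Against 786-O the libraries labelled resistant A498 were also lower (-0.19 ± 0.056, adjusted p = 0.0078), so the direction in these libraries turns with the parental line set beside them. Both calls against 786-O were lost with library size alone, and the latter also without resistant A498 replicate 1 (-0.15) or 2 (-0.16).

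**Figure D3:**
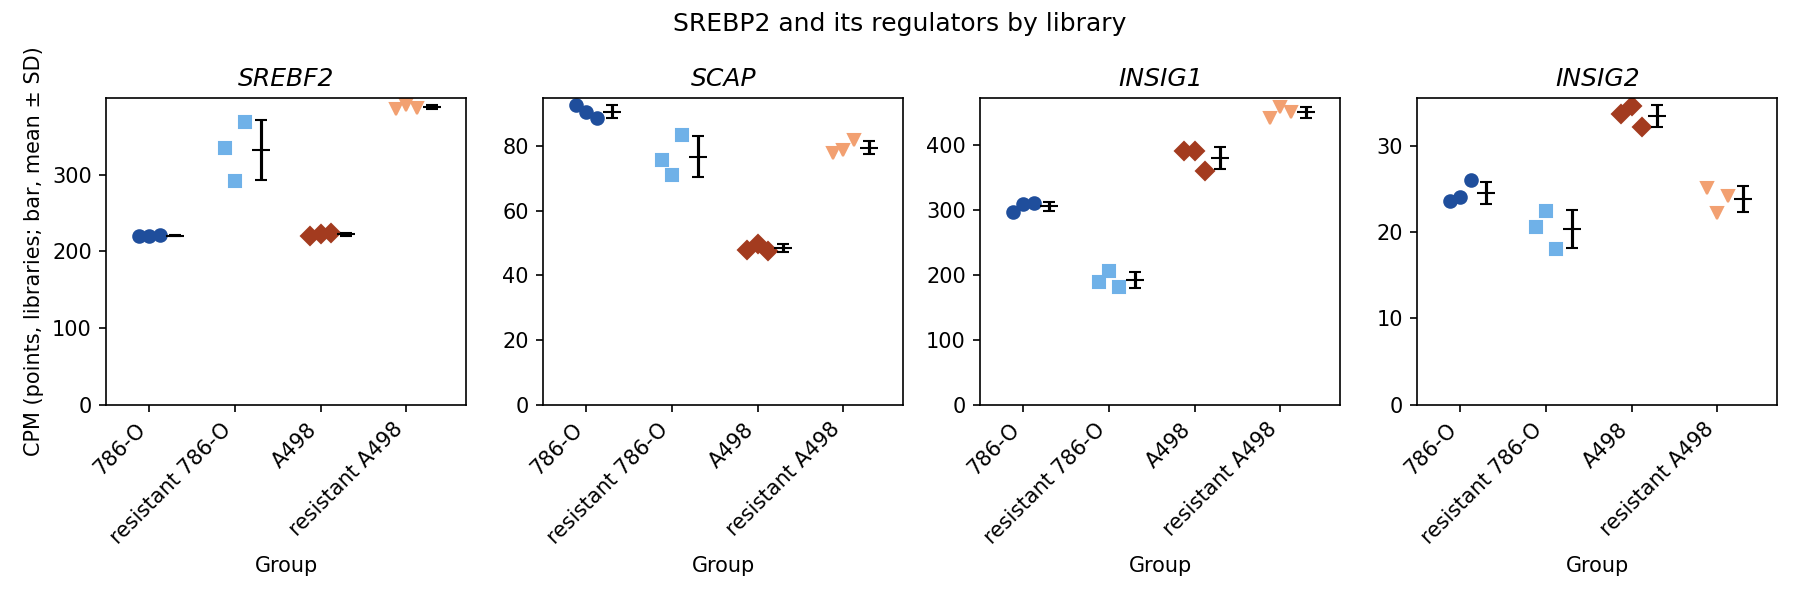
CPM (y axis) of SREBF2, SCAP, INSIG1 and INSIG2 in the 3 libraries of each of 4 groups (x axis), with bars at the mean ± SD. SREBF2 is higher in both resistant groups, INSIG1 is lowest in resistant 786-O at 181 to 206 CPM and highest in resistant A498 at 441 to 457 CPM, and SCAP is lowest in A498.

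Of the genes for sterol transfer and storage, STARD4, a carrier of cholesterol between membranes and a known target of SREBP2 (chr5:111496033-111512590, minus strand), stood out in resistant A498. It read 25.7, 23.0 and 24.9 CPM in A498, with 102, 102 and 105 CPM in resistant A498. In 786-O it read 40.1, 42.7 and 43.4 CPM and in resistant 786-O 47.1, 44.7 and 40.0 CPM, which overlapped. STARD4 rose 4.19-fold against A498 (adjusted p = 5.6e-13) and 2.45-fold against 786-O (adjusted p = 1.8e-10). In resistant 786-O it was not called (log2 fold change 0.062 ± 0.062, adjusted p = 0.39), and was called without resistant 786-O replicate 3, at 0.15. The test of the difference between the 2 resistance comparisons, 2.01 ± 0.090 (adjusted p = 5.2e-11), passed. That difference includes the gap between the parental lines, where 786-O was higher by 0.77 on the log2 scale. STARD4-AS1, on the opposite strand, held 26.4% to 77.0% as many counts and changed by -0.47 in resistant 786-O and 0.52 in resistant A498 against A498.

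OSBP, which exchanges cholesterol for a phosphoinositide at the Golgi, rose from 71.7 ± 1.55 to 97.3 ± 2.32 CPM in resistant A498 and was not called in resistant 786-O, at 75.4 ± 1.79 CPM in 786-O, with 80.0 ± 6.64 CPM in resistant 786-O. Resistant A498 stood at 1.29-fold the level in 786-O (adjusted p = 3.7e-05). Without resistant 786-O replicate 1 OSBP was called in resistant 786-O, at 0.17. SOAT1, which esterifies cholesterol for storage in droplets, read 209.7, 216 and 211 CPM in 786-O, with 153, 189.7 and 139.7 CPM in resistant 786-O, where it fell (log2 fold change -0.40 ± 0.079, adjusted p = 0.00038). It read 144, 145 and 138 CPM in A498, with 180.3, 177 and 175 CPM in resistant A498. The latter were higher than A498 (adjusted p = 0.0024) and lower than 786-O (adjusted p = 0.011), and the call against A498 was lost once the GC and length trend was taken out (0.059). The call against 786-O was lost with library size alone (-0.11) and without resistant A498 replicate 2 (-0.23) or 3 (-0.22).

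Neither liver X receptor was called higher in either line. NR1H3, the receptor of liver and macrophages (chr11:47248300-47269033, plus strand), read 14.8, 14.7 and 16.4 CPM in A498, with 4.85, 4.31 and 4.34 CPM in resistant A498. The level was 3.40-fold lower in the latter by the fitted log2 fold change of -1.76 (adjusted p = 2.3e-10). In 786-O it read 5.50, 5.30 and 5.83 CPM and in resistant 786-O 6.33, 6.82 and 5.99 CPM (adjusted p = 0.057). A498 thus stood alone at the high end, and the libraries labelled resistant A498 lay slightly below 786-O (log2 fold change -0.30 ± 0.099, adjusted p = 0.015). The last call was lost with DESeq2, with library size alone, and without 786-O replicate 3 (-0.26), resistant A498 replicate 2 (-0.24) or resistant A498 replicate 3 (-0.25). In resistant 786-O it was called higher without resistant 786-O replicate 3 (0.27) or resistant A498 replicate 1 (0.22). NR1H2, the receptor of most tissues, was at 60.2 ± 0.156 CPM in 786-O, 59.7 ± 5.33 CPM in resistant 786-O and 59.0 ± 3.14 CPM in resistant A498, and at 84.0 ± 3.25 CPM in A498. The fall in resistant A498 against A498 of -0.51 (adjusted p = 3.3e-06) was -0.037 and not called once the GC and length trend was taken out.

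Of the oxysterol enzymes, CYP7B1, which hydroxylates oxysterols on their way to bile acids, was counted mainly in 786-O. Its counts were 194, 212 and 233 in 786-O and 6, 6 and 3 in resistant 786-O, 0, 1 and 0 in A498 and 0, 0 and 2 in resistant A498. The mean of 5.25 ± 0.203 CPM in 786-O was 48.4-fold that of 0.109 ± 0.0379 CPM in resistant 786-O (log2 fold change -5.55 ± 0.27, adjusted p = 2e-10). Taking 3 counts per library as the floor, CYP7B1 was at least 46.8-fold higher in 786-O than in A498 and at least 42.3-fold higher than in the libraries labelled resistant A498. For this gene those libraries thus lay far from 786-O, near 0 beside resistant 786-O and A498. CYP27A1, the mitochondrial sterol hydroxylase, had 2, 3 and 3 counts in 786-O, 11, 7 and 12 in resistant 786-O, 10, 1 and 10 in A498 and 3, 5 and 5 in resistant A498. CH25H, a cholesterol hydroxylase of the immune response, had 3, 11 and 6 counts in 786-O, 9, 15 and 12 in resistant 786-O, 1, 0 and 0 in A498 and 6, 4 and 2 in resistant A498. With so few counts, the calls of CYP27A1 in resistant 786-O and of CH25H in resistant A498 against A498 rest on a few reads, and no fold is given for these calls.

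**Figure D4:**
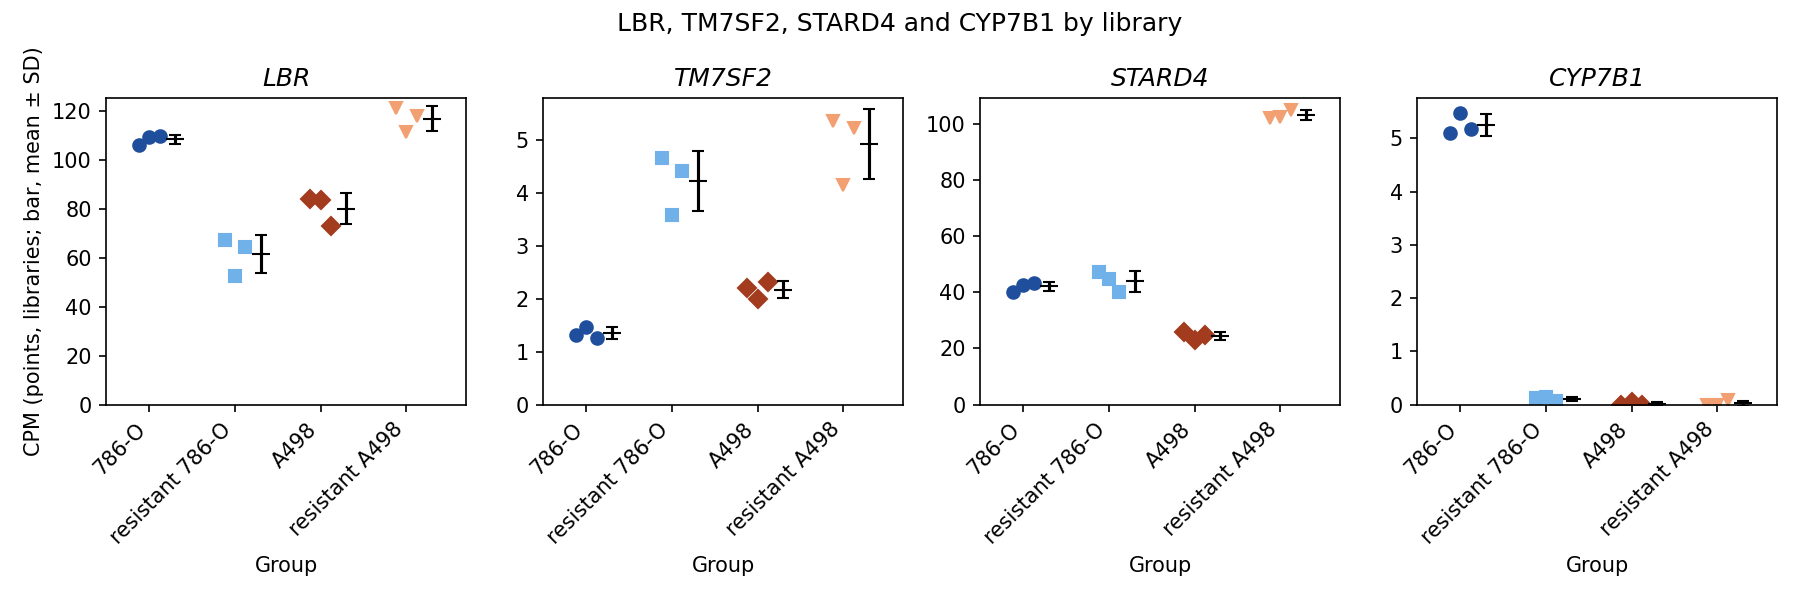
CPM (y axis) of LBR, TM7SF2, STARD4 and CYP7B1 in the 3 libraries of each of 4 groups (x axis), with bars at the mean ± SD. LBR is lowest and TM7SF2 raised in resistant 786-O, STARD4 is raised only in resistant A498, at 102 to 105 CPM, and CYP7B1 is near 0 in all groups but 786-O.

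In bulk libraries such as these, a lower level cannot be told apart from fewer cells that express a gene. Between the parental lines, 26 members differed, 10 higher and 16 lower in 786-O than in A498, against 74.2% of all genes, 38.2% higher and 36.1% lower. ACAT2, MVK, LBR, EBP, SC5D, SCAP, STARD4 and SOAT1 were higher in 786-O beside CH25H and CYP7B1, and HMGCS1, FDPS, FDFT1, GGPS1, INSIG1, INSIG2, NR1H2 and NR1H3 were among those lower. Once the GC and length trend was taken out, 17 were higher and 13 lower, and the share of all genes in that setting is not given. Between the resistant lines, 21 members differed, 18 higher and 3 lower in the libraries labelled resistant A498 than in resistant 786-O, against 46.1% of all genes, 23.0% in each direction. PMVK, MVD and NR1H3 were the 3 lower ones. HMGCS1, IDI1, FDFT1, LBR, MSMO1, SC5D, INSIG1 and STARD4 were among those higher, while LSS, CYP51A1, TM7SF2, NSDHL and MVK were not called, with mean levels of 234 ± 29.3 and 249 ± 8.86 CPM for LSS and of 17.1 ± 1.73 and 17.8 ± 1.25 CPM for CYP51A1.

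Past a log2 difference of 1 in size, 2 members were higher and 2 lower between the parental lines, with 12.1% and 19.8% of all genes, and 3 higher and 0 lower between the resistant ones, with 2.91% and 4.4%. Between the parental lines the higher ones were CH25H and CYP7B1 and the lower ones NR1H3 and CYP27A1. Of these, CH25H and CYP27A1 rest on a few reads. The libraries did not overlap for 26 and 21 members in these comparisons, against 80.2% and 51.7% of all genes.

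The difference between the 2 resistance comparisons was tested in the same fit. It includes the comparison with A498, so it cannot be told apart from differences between the parental lines. It passed for 26 members, 18 with a higher value in resistant A498 against A498 than in resistant 786-O against 786-O and 8 with a lower one, against 68.3% of all genes, 33.9% higher and 34.4% lower. Past 1 in size were 5 higher and 2 lower, with 13.8% and 21.3% of all genes. CH25H and CYP7B1 among the higher and CYP27A1 among the lower had few counts in A498. The split of all called members was 16 and 11 with library size alone and 20 and 5 once the GC and length trend was taken out. The shares of all genes in these settings are not given. The members whose fold changes were not called different were LSS, CYP51A1, TM7SF2, NSDHL, HSD17B7 and INSIG2. Once the GC and length trend was taken out, the difference turned from -0.079 to 0.76 for LSS and from -0.47 to 0.60 for TM7SF2, and CYP51A1, NSDHL and INSIG2 were called different, at -0.55, 0.47 and -0.76.

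A further 52 genes of sterol uptake, transfer, esterification, isoprenoid use and SREBP processing were listed as the rest of the pathway, of which 47 were tested. In resistant 786-O 19 were higher and 17 lower, with a median log2 fold change of 0.0079, where 35.0% and 33.5% of all genes were called. In resistant A498 against A498 21 were higher and 15 lower, with a median of 0.10, where 36.3% and 36.4% of all genes were called. Against 786-O, 18 were higher and 17 lower, beside 31.6% and 32.1% of all genes. Among those with at least 5 CPM in some group, NPC2, which takes cholesterol out of the lysosome, showed the largest rise in resistant 786-O, from 51.5 ± 2.85 to 145 ± 8.37 CPM, and stood at 105 ± 1.67 CPM in A498 and 163 ± 5.44 CPM in resistant A498. ACSS2, which makes acetyl-CoA from acetate, STARD3, a lysosomal sterol carrier, and VLDLR, a lipoprotein receptor, followed in resistant 786-O with log2 fold changes of 1.16, 0.98 and 0.92. NCEH1, which frees cholesterol from its esters, fell from 490.3 ± 2.13 to 192 ± 3.76 CPM in resistant 786-O. IDI2, a second isomerase, NUS1, of dolichol synthesis, and PDSS1, of coenzyme Q synthesis, fell with log2 fold changes of -1.43, -1.05 and -1.03. Of 12 genes of the isoprenoid branches, 2 were higher and 7 lower in resistant 786-O, where 35.0% and 33.5% of all genes were so called. In resistant A498 against A498, 4 were higher and 5 lower, beside 36.3% and 36.4% of all genes. Against 786-O, 2 were higher and 7 lower, beside 31.6% and 32.1% of all genes.

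In resistant A498 against A498, MYLIP, a ligase induced by liver X receptors, rose from 2.52 ± 0.515 to 9.85 ± 0.145 CPM, and ACAT1, the mitochondrial thiolase, and SCARB1, a receptor for high-density lipoprotein, rose by 1.28 and 1.05 on the log2 scale. Against 786-O, ACAT1 and SCARB1 were not called, with log2 fold changes of -0.0070 and -0.062. GRAMD1A, a sterol carrier at membrane contacts, HSD3B7, of bile acid synthesis, and LCAT, which esterifies cholesterol in plasma, fell, with log2 fold changes of -1.73, -1.68 and -0.89, where against 786-O the values were 0.26, -0.18 and -0.86. IDI2 was lower in resistant A498 as well, at 3.11 ± 0.166 CPM against 5.63 ± 0.572 CPM.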

How the data were processed

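Raw gene counts of the 12 libraries were used as the authors deposited them, without normalization. Per the submitters' processing notes and the study's methods, TruSeq stranded mRNA libraries were demultiplexed with bcl2fastq 2.19.0, trimmed with Trimmomatic 0.36.6, aligned to GRCh38 (hg38) with HISAT2 2.1.0 and counted over exons with featureCounts 1.6.3 in the mode for reads on the gene's own strand. Whether that mode matches the strand on which this kit's reads lie was not tested, nor was its effect on overlapping genes. Groups came from the sample labels, and each group has its own batch label, so batch and group cannot be told apart.

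The tests were run with edgeR 4.0.16 under R 4.3.3. Genes were filtered with filterByExpr, which left 19929, including all 32 members, and normalized by TMM. One quasi-likelihood fit with 4 group means gave every comparison, with Benjamini-Hochberg adjustment over all genes tested and a threshold of 0.05. On simulated counts of 17658 genes for resistant 786-O against 786-O, 197 of 200 genes changed 2-fold were recovered, with 7 false calls. The simulation drew every group from the 786-O means with the same dispersion. In the data, 68.5% of all genes were called in this comparison. The median coefficient of variation was 7.81% in resistant 786-O against 2.62% in 786-O, so the simulation does not give the error rate for these data. CPM used the normalized library sizes. Precision follows from 20042519 to 47972092 counts per library, and a level of 3 counts per library was taken as the floor. Alternatives used DESeq2 1.42.0, library size alone, other filters, only the groups compared, a GC and length trend taken out, the replicate number as a block, an edgeR prior count of 2, an absolute log2 fold change over 1, and the study's stated unadjusted test on raw counts and on CPM. Gene positions came from GENCODE 44. All 32 members are named, and of the 52 other pathway genes the 4 highest and 4 lowest per resistance comparison with at least 5 CPM, except 1 that is not reported here. The members and lists were chosen with earlier results of these data known.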

Additional observations from a re-analysis of the deposited data

Results flagged for a closer look

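The change under resistance differed between the cell lines for 23 members with enough counts to give a fold change, by the test of the difference itself in edgeR's quasi-likelihood fit (log2 fold change of resistant A498 against A498 minus that of resistant 786-O against 786-O). The libraries labelled resistant A498 correlated best with resistant 786-O (median r 0.989), then with 786-O (0.967) and least with A498 (0.918), and these values cannot be told apart from differences between the parental lines. The rise was greater in resistant A498 by 2.01 for STARD4, 1.52 for SC5D, 0.79 for ACAT2, 0.68 for IDI1, 0.55 for EBP, 0.41 for DHCR7, 0.35 for OSBP, 0.33 for MSMO1, 0.32 for MVK, 0.27 for HMGCS1, 0.22 for SQLE and 0.22 for SREBF2. LBR, SCAP, INSIG1 and SOAT1, which were lower in resistant 786-O and higher in resistant A498, differed by 1.36, 0.96, 0.91 and 0.72. The value was lower in resistant A498 for NR1H3 (-1.97), PMVK (-0.87), MVD (-0.53), GGPS1 (-0.53), NR1H2 (-0.50), FDPS (-0.34) and FDFT1 (-0.16). The calls of SREBF2 and FDFT1 were lost under 12 and 10 of the alternatives, and the values of HMGCS1, MVD, FDPS, SQLE, MSMO1 and NR1H2 changed sign when the GC and length trend was taken out.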

How the results depend on the processing

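Depth limits CYP27A1, CH25H and, outside 786-O, CYP7B1, which had 15 counts or fewer in each library. Of 2310 values of single members under the alternatives, 2172 kept their direction and their side of the threshold, 53 lost a call, 38 gained one and 47 changed sign. The replicate numbers did not pair the samples, since the deviations of same-numbered libraries from their group means correlated at -0.18 to -0.0017 in resistant 786-O and 786-O and at -0.022 to 0.098 in resistant A498 and A498. The replicate block gave 24, 30, 27, 26, 21 and 26 members called in the 6 comparisons in the order resistant 786-O against 786-O, resistant A498 against A498, resistant A498 against 786-O, 786-O against A498, resistant A498 against resistant 786-O and the difference, as without it.

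A required absolute log2 fold change over 1 reduced these counts to 6, 10, 10, 4, 3 and 7, with 5, 8, 9, 2, 3 and 5 higher and 1, 2, 1, 2, 0 and 2 lower, by construction. The study's test on raw counts, which are not scaled for depth, gave 10 called in resistant A498 against A498 (9 higher, 1 lower), 17 against 786-O (6 higher, 11 lower), 11 in 786-O against A498 (0 lower), 0 higher and 24 lower in resistant A498 against resistant 786-O, and 3 lower in resistant 786-O against 786-O, as did the same test on CPM. Library size alone gave 4 lower in resistant 786-O and 2 lower in resistant A498 against 786-O, and taking out the GC and length trend gave 17 higher in 786-O against A498 and 5 lower in the difference. For these the cause was not tested, and the shares of all genes called under these settings are not given. With each library left out in turn, the counts of members called higher were 16 to 20, 24 to 25, 22 to 23, 9 to 10, 16 to 19 and 16 to 17, and those called lower 6 to 7, 5 to 5, 2 to 5, 13 to 16, 3 to 4 and 6 to 11, in the same order. The lowest of resistant A498 against 786-O were 2 lower without resistant A498 replicate 2 and 3 lower without resistant A498 replicate 3. The totals were 22 to 26, 29 to 30, 24 to 28, 23 to 25, 19 to 22 and 22 to 28.

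Taking out the GC and length trend turned the sign in resistant 786-O MVK to -0.25 from 0.27, GGPS1 to 0.043 from -0.076, MSMO1 to 0.22 from -0.018, NSDHL to -0.11 from 0.10, INSIG2 to 0.049 from -0.27, OSBP to -0.031 from 0.086 and NR1H3 to -0.22 from 0.20, in resistant A498 against 786-O MVK to -0.033 from 0.28 and in the difference between the cell lines HMGCS1 to -0.093 from 0.27, MVD to 0.64 from -0.53, FDPS to 0.16 from -0.34, SQLE to -0.010 from 0.22, LSS to 0.76 from -0.079, TM7SF2 to 0.60 from -0.47, MSMO1 to -0.053 from 0.33 and NR1H2 to 0.54 from -0.50. Scaling by library size alone turned the sign in resistant 786-O GGPS1 to 0.067 from -0.076, MSMO1 to 0.13 from -0.018 and NR1H2 to 0.13 from -0.014 and in resistant A498 against 786-O INSIG2 to 0.11 from -0.043 and NR1H2 to 0.12 from -0.029. DESeq2 turned the sign in resistant 786-O MSMO1 to 0.0051 from -0.018 and NR1H2 to 0.010 from -0.014 and in resistant A498 against 786-O NR1H2 to 0.0059 from -0.029. A minimum of 10 counts turned the sign in resistant 786-O MSMO1 to 0.039 from -0.018 and NR1H2 to 0.043 from -0.014 and in resistant A498 against 786-O INSIG2 to 0.0021 from -0.043 and NR1H2 to 0.016 from -0.029. Fitting only the groups compared turned the sign in resistant 786-O MSMO1 to 0.016 from -0.018 and NR1H2 to 0.021 from -0.014 and in resistant A498 against 786-O NR1H2 to 0.0098 from -0.029. Leaving out the filter turned the sign in the difference between the cell lines HSD17B7 to 0.015 from -0.032. With each library left out in turn, the value crossed 0 for MSMO1 in resistant 786-O (-0.072 to 0.089, from -0.018), NR1H2 in resistant 786-O (-0.085 to 0.071, from -0.014), INSIG2 in resistant A498 against 786-O (-0.073 to 0.030, from -0.043), NR1H2 in resistant A498 against 786-O (-0.047 to 0.031, from -0.029), LSS in the difference between the cell lines (-0.17 to 0.0065, from -0.079) and HSD17B7 in the difference between the cell lines (-0.076 to 0.046, from -0.032), none of which was called.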

Other observations

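Per kilobase of exon, INSIG1 was the most abundant member in 786-O at 83.5 CPM per kb, ahead of ACAT2 at 58.1, FDPS at 50.4 and SQLE at 50.1 CPM per kb. In resistant 786-O, FDPS led at 82.8 CPM per kb, ahead of SQLE at 64.6 and ACAT2 at 62.4, and INSIG1 came after them at 52.6 CPM per kb. The level of INSIG1 was 13.4 ± 0.513 times that of INSIG2 per length in 786-O, 10.2 ± 0.529 times in resistant 786-O, 12.3 ± 0.230 times in A498 and 20.4 ± 1.65 times in resistant A498. That of NR1H2 was 9.24 ± 0.466 times that of NR1H3 in 786-O, 7.94 ± 0.544 times in resistant 786-O, 4.66 ± 0.145 times in A498 and 11.2 ± 0.973 times in resistant A498. These are mean ± SD of 3 libraries, and no test was made of them.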
